A study of Mus musculus with 21 samples.

Results

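Lgr5 and 8 other genes known from the intestine as Wnt targets or stem cell genes were followed across mouse stomach corpus cells. The 9 genes were Lgr5, Axin2, Ascl2, Nkd1, Sox9, Tnfrsf19, Rnf43, Znrf3 and Lrig1, taken as a named list out of 22180 genes tested. A row of the deposited table was used where its platform annotation names exactly 1 gene, and where a gene had several rows the brightest on average over the 21 arrays was taken. Lgr5 and Axin2 had a second row each, and the other 7 genes had 1 row.

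The cells came from mice in which green fluorescent protein marks Lgr5, and were sorted by flow cytometry as Lgr5GFP high, low and negative. Mice of the tamoxifen groups received 0.27 mg of tamoxifen per g of body weight 24 hours before cell isolation. Control mice are marked as uninjected, so vehicle injection has no control here. The groups were tamoxifen high, tamoxifen low and tamoxifen negative with 4 arrays each, and control high, control low and control negative with 3 arrays each. All groups share the reporter. The exact reporter allele, the strain and the age are not given in the sources used here, nor is whether cells of several mice were pooled. The submitters call the replicates technical, from separate sorting runs, so p-values measure only the spread between these arrays. Numbers in the sample titles were read as sorting runs, which the labels do not state. Read so, the 21 arrays fall into 8 runs, 5 of tamoxifen mice and 3 of control mice. Each run holds 1 treatment, so drug, injection and sorting run cannot be told apart. For the 3 control negative samples 1 label reads low, while the title and the cell population label read negative, and the last 2 were followed.

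Wnt proteins bind Frizzled and Lrp receptors and keep beta-catenin from being degraded, so that it enters the nucleus and switches on genes together with TCF factors. Lgr5 is a receptor for R-spondins, secreted proteins that make cells more sensitive to Wnt, and it marks stem cells at the base of intestinal crypts. In the stomach corpus Lgr5 is known to mark some of the chief cells, which secrete pepsinogen at the base of the gland. Among the other genes, Axin2, Nkd1, Rnf43 and Znrf3 encode negative feedback regulators that active Wnt signalling induces. Ascl2 and Sox9 encode transcription factors of intestinal crypt cells, Tnfrsf19 (also called Troy) encodes a receptor of the TNF receptor family, and Lrig1 encodes a membrane protein that restrains ErbB growth factor receptors.

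Promoter windows of 4 of these genes are printed. Nkd1 and Ascl2 are shown because their levels stepped down with the reporter, and Axin2 because it is the usual Wnt feedback gene. For Tnfrsf19 the window printed was the only one matched that held the TCF core. Windows of 250 bases before an annotated start, from RefSeq on GRCm38.p6, were matched by symbol for 6 of the 9 genes, with 8 windows in all. Lgr5, Sox9 and Znrf3 are named only. Capitals mark 2 motifs, searched on both strands. One is the core of the TCF site, CTTTGA or CTTTGT, and the other is the E-box CANNTG, the motif of basic helix-loop-helix factors such as Ascl2. The windows are Nkd1 at chr8:88527383-88527632 (plus strand), Ascl2 at chr7:142969265-142969514 (minus strand), Axin2 at chr11:108920099-108920348 (plus strand) and Tnfrsf19 at chr14:61037988-61038237 (minus strand), each written 5′ to 3′.
Nkd1: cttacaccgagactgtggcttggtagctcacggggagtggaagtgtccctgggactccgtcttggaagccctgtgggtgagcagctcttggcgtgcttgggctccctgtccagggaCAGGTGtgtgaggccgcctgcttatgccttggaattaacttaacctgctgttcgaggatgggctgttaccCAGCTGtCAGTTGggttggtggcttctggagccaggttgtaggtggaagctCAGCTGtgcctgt
Ascl2: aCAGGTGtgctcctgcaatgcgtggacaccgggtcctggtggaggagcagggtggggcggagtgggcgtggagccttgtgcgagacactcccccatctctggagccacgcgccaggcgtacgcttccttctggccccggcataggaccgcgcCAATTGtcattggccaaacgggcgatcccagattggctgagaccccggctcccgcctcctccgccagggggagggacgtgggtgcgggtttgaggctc
Axin2: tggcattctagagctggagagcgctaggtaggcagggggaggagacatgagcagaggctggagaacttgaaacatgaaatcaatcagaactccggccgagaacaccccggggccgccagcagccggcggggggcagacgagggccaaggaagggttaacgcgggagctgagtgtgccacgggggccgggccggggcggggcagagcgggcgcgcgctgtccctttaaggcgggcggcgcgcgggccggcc
Tnfrsf19: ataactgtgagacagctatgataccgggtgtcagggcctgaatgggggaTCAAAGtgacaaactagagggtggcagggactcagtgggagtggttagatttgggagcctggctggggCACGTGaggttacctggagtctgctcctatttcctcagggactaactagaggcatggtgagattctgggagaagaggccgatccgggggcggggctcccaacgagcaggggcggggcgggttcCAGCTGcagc
The TCF core was found in 1 of the 8 windows, the printed one of Tnfrsf19, where it stands as TCAAAG, the core read on the other strand. The other Tnfrsf19 window (chr14:61046856-61047105) held no TCF core and 3 E-boxes. Of all 32851 windows of this length in the RefSeq table, 27.6% held it. E-boxes were found in 5 of the 8 windows, against 66.2% of all windows, and the Nkd1 window held 4 of them. The Axin2 window held neither motif and had 24 CG dinucleotides, against a median of 6 over all windows. A match describes the letters and shows no binding, and no match says only that these letters are not in this window.

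Levels are log2 signal, so a difference of 1 is 2-fold. As a guide to background, the 95th percentile of 1105 olfactory receptor genes was 4.25, and where the dimmer group's mean lay at or under it the fold is a lower bound against that level. Within groups, arrays correlated at 0.944 to 0.991 over all genes (Pearson's r). The tissue label was checked against markers of stomach and epithelium. Group means of Pgc (pepsinogen C) lay between 13.17 and 13.36, and those of Cblif (gastric intrinsic factor) between 10.98 and 12.64. Those of 4 epithelial markers lay between 10.54 and 11.00. The gastrin gene Gast had group means of 7.16 to 9.32, with single arrays from 4.87 to 12.66. Whether cells of the antrum, where gastrin is made, were among the sorted cells was not tested. Of the 8 chief cell markers, Cpb1 and Lipf were at or under background in every group. By group, 3 to 7 of 8 immune markers, 3 to 6 of 8 fibroblast and smooth muscle markers and 4 to 6 of 6 endothelial markers were at or under background. The smooth muscle genes Acta2 (group means 5.08 to 5.53) and Myh11 (4.64 to 4.97) lay above it in all 6 groups, and the endothelial receptor gene Tek reached 5.49 in tamoxifen high and 7.25 in control high cells. A gene was called changed when its limma p, adjusted over all 22180 genes by Benjamini-Hochberg, was under 0.05. Differences are given ± their standard error (SE).

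Lgr5 itself followed the sort, which serves as a check of the labels and is no finding. Its signal was 8.05, 8.42, 8.74 and 8.53 in tamoxifen high cells, against 8.40, 8.80 and 9.15 in control high cells. Low cells had 6.54, 7.01, 6.75 and 6.49 after tamoxifen, against 7.49, 7.48 and 7.71 in controls. In negative cells it was 4.42, 4.81, 4.56 and 4.58 after tamoxifen, against 4.06, 4.34 and 4.82 in controls. The 3 populations did not overlap within either treatment, and in all 6 runs that hold all 3 populations the order was high over low over negative. Between control high and control negative cells the difference was 4.38 on the log2 scale. The second Lgr5 row gave the same order, with means of 8.57, 6.75 and 3.66 in tamoxifen high, low and negative cells and of 9.09, 7.61 and 3.96 in the control populations.

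**Figure D1:**
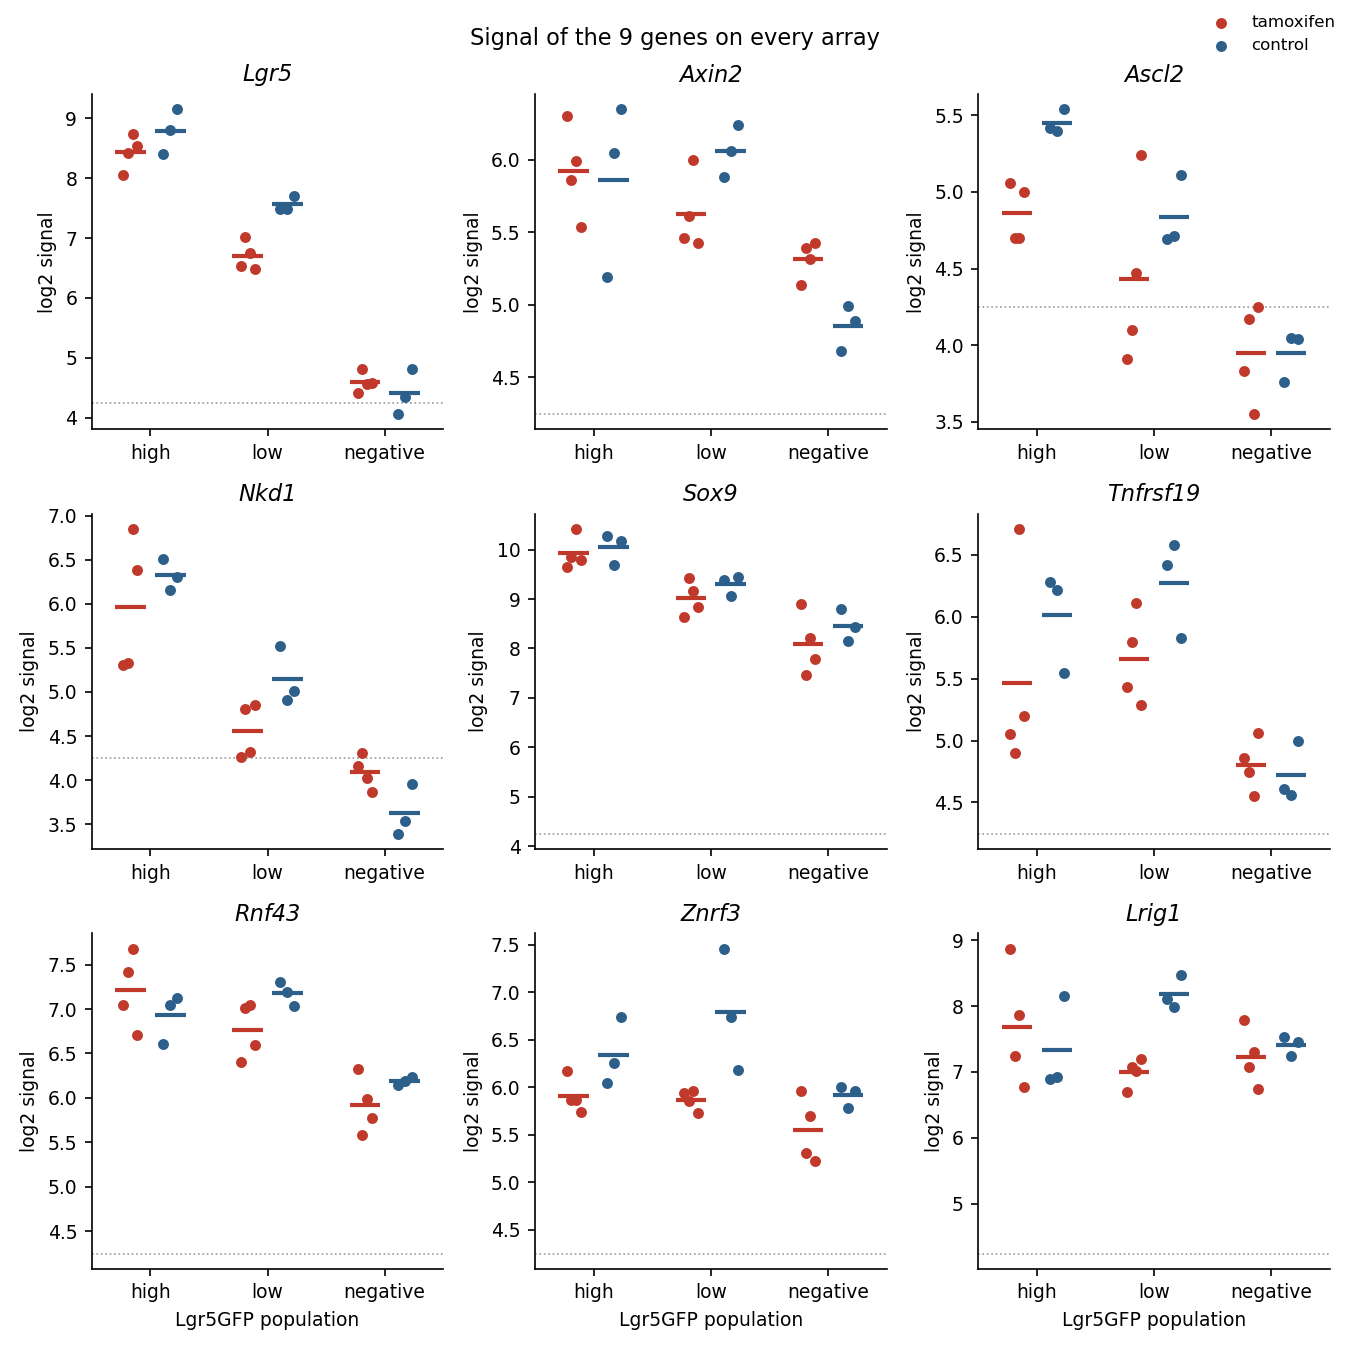
Log2 signal (y axes, which differ in range) of the 9 genes by Lgr5GFP population (x axes), with a point for each array (red, tamoxifen, n = 4; blue, control, n = 3), a bar at each group mean and a dotted line at the background guide of 4.25. Lgr5, Nkd1, Ascl2 and Sox9 step down with the reporter from high to negative, while Lrig1 shows no such order.

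In control mice, 6 of the 8 genes other than Lgr5 were higher in high than in negative cells, namely Nkd1, Sox9, Ascl2, Tnfrsf19, Axin2 and Rnf43. Of all genes tested, 4.64% were called higher and 12.3% in either direction. With Lgr5, which drives the sort, the count is 7 of 9. The median difference of the 8 genes without Lgr5 was 1.15 on the log2 scale, against 0.04 over all genes. In 7 of these 8 genes the control high and control negative arrays did not overlap, against 33.4% of all genes. A bulk sample cannot tell fewer cells of a type from less RNA per cell, which holds for every difference given here.

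Control low cells also stood above control negative cells in 6 of the 8 genes, namely Tnfrsf19, Nkd1, Axin2, Rnf43, Ascl2 and Znrf3. Of all genes, 1.85% were called higher and 5.27% in either direction. With Lgr5 the count is again 7 of 9. All 8 differences without Lgr5 were above 0. None of these 8 genes overlapped between the groups, against 27.1% of all genes without overlap. Both comparisons share the 3 control negative arrays. These calls were sensitive to single arrays: without 1 array, 2 to 6 of the 9 genes were called. Between control high and control low cells only Lgr5 was called (log2 1.23 ± 0.22, adjusted p = 0.00593, and 0.0503 in a fit of these 2 groups alone), where 0.694% of all genes were called higher and 1.34% in either direction. In 3 of the 8 genes other than Lgr5 these 2 groups did not overlap, against 16.1% of all genes.

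In tamoxifen mice, 4 of the 8 genes other than Lgr5 were higher in high than in negative cells, namely Sox9, Nkd1, Rnf43 and Ascl2. Of all genes, 3.33% were called higher and 10.3% in either direction, and with Lgr5 the count is 5 of 9. All 8 differences without Lgr5 were above 0, with a median of 0.79 against 0.05 over all genes. Of these 8 genes 5 did not overlap, against 10.9% of all genes. Rnf43 was the only gene besides Lgr5 called higher in tamoxifen low than in tamoxifen negative cells. This is 1 of 8 without Lgr5, where 0.509% of all genes were called higher and 2.24% in either direction. Nkd1 was the only gene besides Lgr5 called higher in tamoxifen high than in tamoxifen low cells. This is again 1 of 8, where 1.46% of all genes were called higher and 3.22% in either direction. In each of these last 2 comparisons 2 of the 8 genes other than Lgr5 did not overlap. Of all genes, 7.42% did not overlap for low with negative cells and 7.45% for high with low cells.

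**Figure D2:**
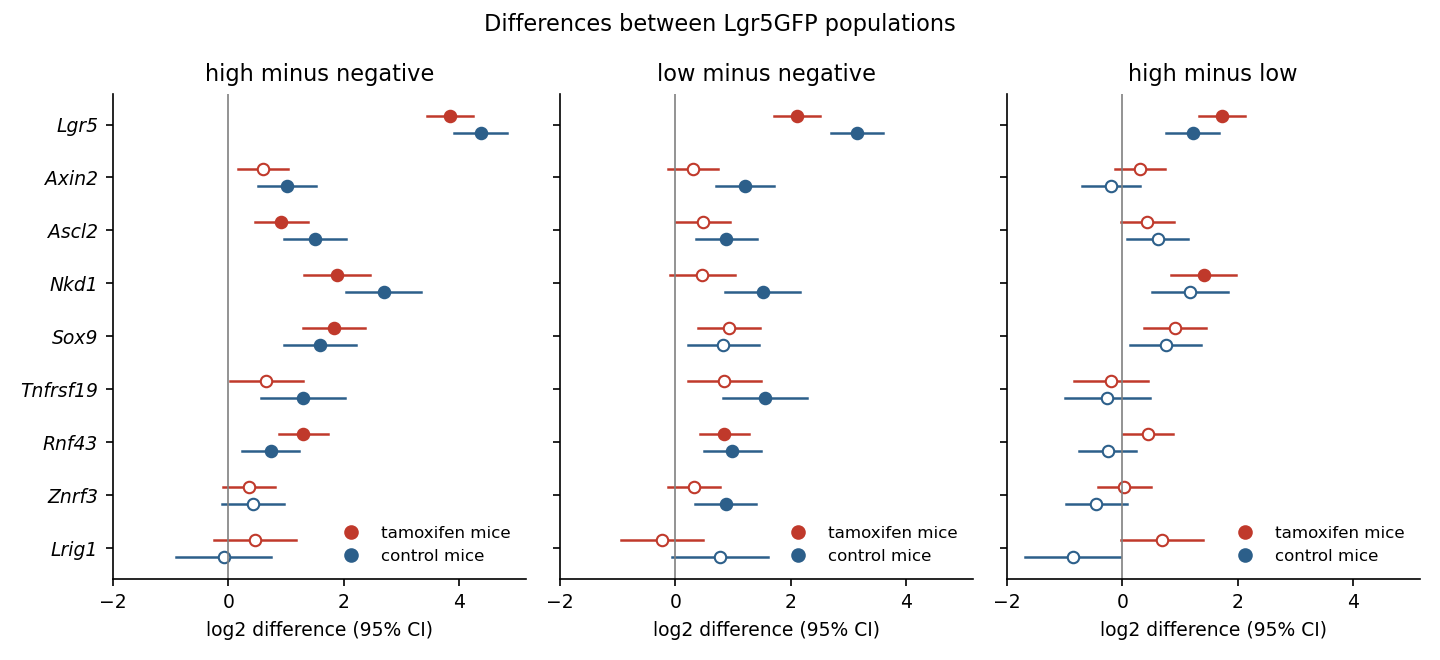
Differences between populations (x axes, log2 with 95% confidence intervals from the limma fit, shared range) for the 9 genes (rows), in tamoxifen mice (red) and control mice (blue), with filled points where the adjusted p was under 0.05. Apart from Lgr5, Nkd1 in control mice has the largest difference between high and negative cells, and in high minus low only Lgr5 in both treatments and Nkd1 in tamoxifen mice are filled.

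Nkd1, whose protein binds Dishevelled and dampens Wnt signals, had the widest span of group means after Lgr5. Its signal was 5.31, 5.33, 6.85 and 6.39 in tamoxifen high cells, against 6.51, 6.16 and 6.30 in control high cells. Low cells had 4.26, 4.81, 4.32 and 4.85 after tamoxifen, against 5.52, 4.91 and 5.01 in controls. In negative cells it was 4.16, 4.31, 4.02 and 3.86 after tamoxifen, against 3.39, 3.54 and 3.96 in controls. All control negative arrays and 3 of the 4 tamoxifen negative arrays lay under background, and no high array overlapped with any low or negative array of the same treatment. The high over negative difference was 2.69 ± 0.32 in controls (at least 4.23-fold, adjusted p = 1.43e-05) and 1.88 ± 0.27 after tamoxifen (at least 3.30-fold, adjusted p = 0.000134). Tamoxifen high cells exceeded tamoxifen low cells by 1.41 ± 0.27 (2.66-fold, adjusted p = 0.0054, and 0.0836 in a fit of these 2 groups alone). Control high cells stood 1.18 ± 0.32 over control low cells, which did not pass the test (adjusted p = 0.0697). The call of control low over control negative (1.51 ± 0.32, at least 1.86-fold, adjusted p = 0.00652) was lost without control low replicate 1 (adjusted p = 0.055). After tamoxifen, low over negative was not called (0.47 ± 0.27, adjusted p = 0.526), and the arrays overlapped.

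Axin2, which encodes a scaffold of the beta-catenin destruction complex, separated the negative cells of control mice from their high and low cells. Signals in high cells were 6.30, 5.86, 5.99 and 5.54 after tamoxifen, against 5.19, 6.05 and 6.35 in controls. They were 5.46, 5.61, 6.0 and 5.43 in tamoxifen low cells, against 5.88, 6.06 and 6.24 in control low cells. Tamoxifen negative cells had 5.14, 5.39, 5.32 and 5.43, against 4.68, 4.99 and 4.89 in control negative cells. The control negative arrays were the lowest of all 21, and the high and low groups overlapped within each treatment. Control high cells exceeded control negative cells by 1.01 ± 0.24 (2.01-fold, adjusted p = 0.00675), and control low cells exceeded them by 1.21 ± 0.24 (2.31-fold, adjusted p = 0.00483). On the second, dimmer Axin2 row neither call was made (adjusted p = 0.308 and 0.494), with means of 5.62, 5.56 and 5.04 in control high, low and negative cells. After tamoxifen the high over negative difference was 0.61 ± 0.21 (adjusted p = 0.0704, and 0.0369 without tamoxifen high replicate 4).

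Rnf43, a membrane ubiquitin ligase that removes Frizzled receptors, was lowest in negative cells of both treatments. High cells had 7.05, 7.42, 7.68 and 6.71 after tamoxifen, against 6.61, 7.05 and 7.13 in controls. Low cells had 6.40, 7.01, 7.05 and 6.60 after tamoxifen, against 7.31, 7.19 and 7.04 in controls. For negative cells the values were 6.32, 5.58, 5.99 and 5.77 after tamoxifen, against 6.15, 6.19 and 6.24 in controls. No negative array overlapped with a high or low array of its own treatment. The high over negative difference was 1.30 ± 0.21 after tamoxifen (2.46-fold, adjusted p = 0.000314), a call kept without any 1 array, and 0.74 ± 0.24 in controls (1.67-fold, adjusted p = 0.0455). The control call was lost without any 1 array but control high replicate 1 (adjusted p up to 0.154). Low over negative was 0.85 ± 0.21 after tamoxifen (adjusted p = 0.0287) and 0.99 ± 0.24 in controls (adjusted p = 0.0169). The first of these was lost without replicate 2 or 3 of the tamoxifen low arrays or replicate 2, 3 or 4 of the tamoxifen negative arrays (adjusted p up to 0.111), and in a fit of these 2 groups alone (adjusted p = 0.065). The second was lost without any 1 array but control low replicate 3 (adjusted p up to 0.0923).

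Znrf3, the close relative of Rnf43 with the same task, was called between populations only for control low over control negative cells. Its signal was 6.17, 5.86, 5.86 and 5.74 in tamoxifen high cells, against 6.04, 6.25 and 6.74 in control high cells. Low cells had 5.94, 5.85, 5.96 and 5.73 after tamoxifen, against 7.46, 6.74 and 6.18 in controls. In negative cells it was 5.96, 5.31, 5.70 and 5.22 after tamoxifen, against 6.0, 5.78 and 5.96 in controls. The control low arrays spread widely (SD 0.64), and the highest of them was the highest of all 21 arrays. Control high over control negative was 0.43 ± 0.25 (adjusted p = 0.372, 95% interval -0.10 to 0.96). The call of control low over control negative (0.88 ± 0.25, adjusted p = 0.0476) was lost without any 1 array but control low replicate 3 (adjusted p up to 0.35, log2 0.55 without control low replicate 1) and with the sorting run as a block (adjusted p = 0.0641).

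Ascl2, a helix-loop-helix factor needed by intestinal stem cells, lay near the background guide in negative cells. Tamoxifen high cells had 5.06, 4.70, 4.70 and 5.00, against 5.42, 5.40 and 5.54 in control high cells. The low cells had 3.91, 4.10, 4.47 and 5.24 after tamoxifen, against 4.69, 4.71 and 5.11 in controls. Tamoxifen negative cells had 3.83, 4.17, 3.55 and 4.25, against 3.76, 4.05 and 4.04 in control negative cells. All high and control low arrays lay above background, as did 2 of 4 tamoxifen low arrays, while the negative arrays lay between 3.55 and 4.25. High over negative was 1.50 ± 0.26 in controls (at least 2.31-fold, adjusted p = 0.000405) and 0.92 ± 0.22 after tamoxifen (at least 1.53-fold, adjusted p = 0.00975), both kept without any 1 array. Control low over control negative (0.88 ± 0.26, adjusted p = 0.0474) was lost without any 1 of its 6 arrays (adjusted p up to 0.187). Tamoxifen low replicate 4 stood above the other tamoxifen low arrays, and without it tamoxifen high exceeded tamoxifen low cells by 0.70 (adjusted p = 0.0463), against 0.43 ± 0.22 with it (adjusted p = 0.354).

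Sox9, a transcription factor of crypt and gland base cells, lay well above background on every array. High cells had 9.66, 9.85, 10.42 and 9.79 after tamoxifen, against 10.27, 9.70 and 10.18 in controls. Low cells had 8.64, 9.43, 9.16 and 8.85 after tamoxifen, against 9.38, 9.06 and 9.45 in controls. Negative cells had 8.90, 7.47, 8.22 and 7.78 after tamoxifen, against 8.79, 8.15 and 8.44 in controls. In all 6 runs that hold the 3 populations the order was high over low over negative. High over negative was 1.83 ± 0.26 after tamoxifen (3.56-fold, adjusted p = 9.84e-05) and 1.59 ± 0.30 in controls (3.00-fold, adjusted p = 0.000969). Control high over control low was 0.75 ± 0.30 (adjusted p = 0.301), and control low over control negative 0.83 ± 0.30 (adjusted p = 0.129). Same-run arrays of these control groups deviated together, and with the run as a block both passed (adjusted p = 0.047 and 0.0116). After tamoxifen, high over low was 0.91 ± 0.26 (adjusted p = 0.0577, and 0.0429 without tamoxifen high replicate 1). Tamoxifen low over tamoxifen negative was 0.93 ± 0.26 (adjusted p = 0.0686, and 0.00809 without tamoxifen negative replicate 1, whose signal was the highest of its group).

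For Tnfrsf19, low cells had the highest signal of the 3 populations in 5 of 6 runs. The same held in 3 of 6 runs for Axin2, Znrf3 and Lrig1 and in 2 of 6 for Rnf43. High minus low was not called for Tnfrsf19, at -0.26 ± 0.35 in controls (adjusted p = 0.94) and -0.195 ± 0.31 after tamoxifen (adjusted p = 0.841). Tamoxifen high cells had 5.05, 4.90, 6.71 and 5.20, against 6.28, 6.22 and 5.55 in control high cells. Low cells had 5.43, 5.80, 6.11 and 5.29 after tamoxifen, against 6.42, 6.58 and 5.83 in controls. Tamoxifen negative cells had 4.86, 4.75, 4.55 and 5.06, against 4.61, 4.56 and 5.00 in control negative cells. Replicate 3 of the tamoxifen high arrays stood far above the other 3. Low over negative was 1.56 ± 0.35 in controls (2.94-fold, adjusted p = 0.0118), and high over negative was 1.30 ± 0.35 (2.46-fold, adjusted p = 0.0168). Each of these was lost without replicate 1 or 2 of the control negative arrays or of the higher group (adjusted p up to 0.0672 for low and 0.0835 for high). After tamoxifen neither comparison passed (low over negative 0.85 ± 0.31, adjusted p = 0.192, and high over negative 0.66 ± 0.31, adjusted p = 0.195).

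Lrig1 followed no order of populations. Its signal was 8.87, 7.25, 7.86 and 6.77 in tamoxifen high cells, against 6.90, 6.92 and 8.16 in control high cells. Low cells had 6.69, 7.07, 7.02 and 7.20 after tamoxifen, against 8.11, 7.98 and 8.47 in controls. In negative cells it was 7.79, 7.08, 7.30 and 6.74 after tamoxifen, against 7.53, 7.24 and 7.45 in controls. High cells spread the most (SD 0.91 after tamoxifen and 0.72 in controls), and within each treatment they overlapped with the negative cells. Control high over control negative was -0.08 ± 0.40 (adjusted p = 0.952, 95% interval -0.91 to 0.75).

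Each gene's 6 group means were put in order, and neighbours in that order were set beside each other. The pairs follow each gene's own order, while the shares over all genes hold for fixed pairs, so they are unlike measures. Lgr5 had 3 of 5 neighbouring pairs that did not overlap, from tamoxifen high down to tamoxifen negative cells. In the same pairs of groups 11.8%, 21.2% and 7.42% of all genes did not overlap. Because Lgr5 drives the sort, its separation of tamoxifen high from control low cells is no finding. The same holds for tamoxifen low over tamoxifen negative cells. Axin2, Ascl2, Nkd1, Sox9, Rnf43 and Znrf3 had 1 neighbouring pair without overlap each. For Nkd1 it was control low over tamoxifen low cells (21.2% of all genes), for Sox9 tamoxifen high over control low cells (11.8%), and for Ascl2 control high over tamoxifen high cells (10.4%). For Axin2 it was tamoxifen negative over control negative cells (15.3%), for Rnf43 tamoxifen low over control negative cells (22.9%), and for Znrf3 control high over control negative cells (33.4%). No neighbouring groups of Tnfrsf19 or Lrig1 were apart.

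The calls between tamoxifen and control mice lay in Lgr5GFP low cells. There Lgr5 and Znrf3 fell after tamoxifen, 2 of 9 genes, where 2.98% of all genes were called lower and 8.32% in either direction. All 9 differences were below 0, with a median of -0.59 against 0.01 over all genes. For 4 of 9 genes the arrays did not overlap, against 21.2% of all genes. Without Lgr5, which drives the sort, 1 of 8 genes was called, namely Znrf3. The median of these 8 was -0.51, and 3 of 8 did not overlap. Lgr5 fell by 0.86 ± 0.21 on the log2 scale (1.82-fold, adjusted p = 0.011), and the call was kept without any 1 array. Since the reporter marks Lgr5, this value also depends on where the gate for low cells lay in each run, which is not given in the sources used here. Znrf3 fell by 0.92 ± 0.24 (1.89-fold, adjusted p = 0.0176), and the call was lost without control low replicate 1 (log2 -0.59, adjusted p = 0.162) or control low replicate 2 (adjusted p = 0.0535).

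Lrig1 had the largest difference in low cells and missed the threshold narrowly. All 4 tamoxifen low arrays (6.69 to 7.20) lay below all 3 control low arrays (7.98 to 8.47), a difference of -1.19 ± 0.37 (adjusted p = 0.0508). It passed with cyclic loess (adjusted p = 0.0159), a trended robust eBayes (0.0499), array weights (0.0189), the dimmest 25% of genes left out (0.0406) and a fit of these 2 groups alone (0.00297). When 1 array was left out the adjusted p was 0.0643 to 0.16. Nkd1 also had no overlap between tamoxifen and control low arrays (-0.59 ± 0.29, adjusted p = 0.26). The other 5 genes ran from -0.28 for Sox9 to -0.62 for Tnfrsf19, with adjusted p between 0.276 and 0.634. Without tamoxifen low replicate 4, Ascl2 was called as well (log2 -0.67, adjusted p = 0.0411).

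In Lgr5GFP high cells none of the 9 genes was called between tamoxifen and control mice (limma, lowest adjusted p = 0.205), where 2.73% of all genes were called. At an unadjusted p under 0.05 there was 1 gene, Ascl2, whose arrays did not overlap (4.70 to 5.06 after tamoxifen, against 5.40 to 5.54 in controls, difference -0.59 ± 0.24). Non-overlap held for that 1 gene of 9 and for 10.4% of all genes. Tnfrsf19 was 0.55 ± 0.33 lower after tamoxifen (adjusted p = 0.423), and without tamoxifen high replicate 3 the difference was -0.97 (adjusted p = 0.0358). For Lgr5 it was -0.35 ± 0.21 (95% interval -0.78 to 0.08), for Axin2 0.06 ± 0.23 (-0.41 to 0.53) and for Rnf43 0.28 ± 0.22 (-0.18 to 0.75).

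In negative cells again no gene of the 9 was called (limma, lowest adjusted p = 0.405, 0 of 9 at an unadjusted p under 0.05), where 2.32% of all genes were called. Axin2 had the largest difference, 0.47 ± 0.23, and its tamoxifen negative arrays (5.14 to 5.43) lay above its control negative arrays (4.68 to 4.99). The second Axin2 row ran the other way, with 4.79 in tamoxifen negative and 5.04 in control negative cells. By its brighter row Axin2 made 1 of 9 genes without overlap, against 15.3% of all genes. Nkd1 was 0.46 ± 0.29 higher, with both groups around background.

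Whether the tamoxifen difference itself differed between populations was tested as an interaction, and no gene of the 9 was called. The lowest limma adjusted p was 0.114 for low minus negative (3 of 9 genes at an unadjusted p under 0.05), 0.507 for high minus low (2 of 9) and 0.657 for high minus negative (0 of 9). Of all genes, 0.839%, 0.0271% and 0.248% were called in these 3 tests. Lgr5 had the lowest value, at -1.05 ± 0.29 for low minus negative cells. For Lrig1 the tamoxifen difference in high cells was 1.55 ± 0.52 above that in low cells (adjusted p = 0.507). The larger number of calls in low cells is therefore not shown to be particular to them.

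**Figure D3:**
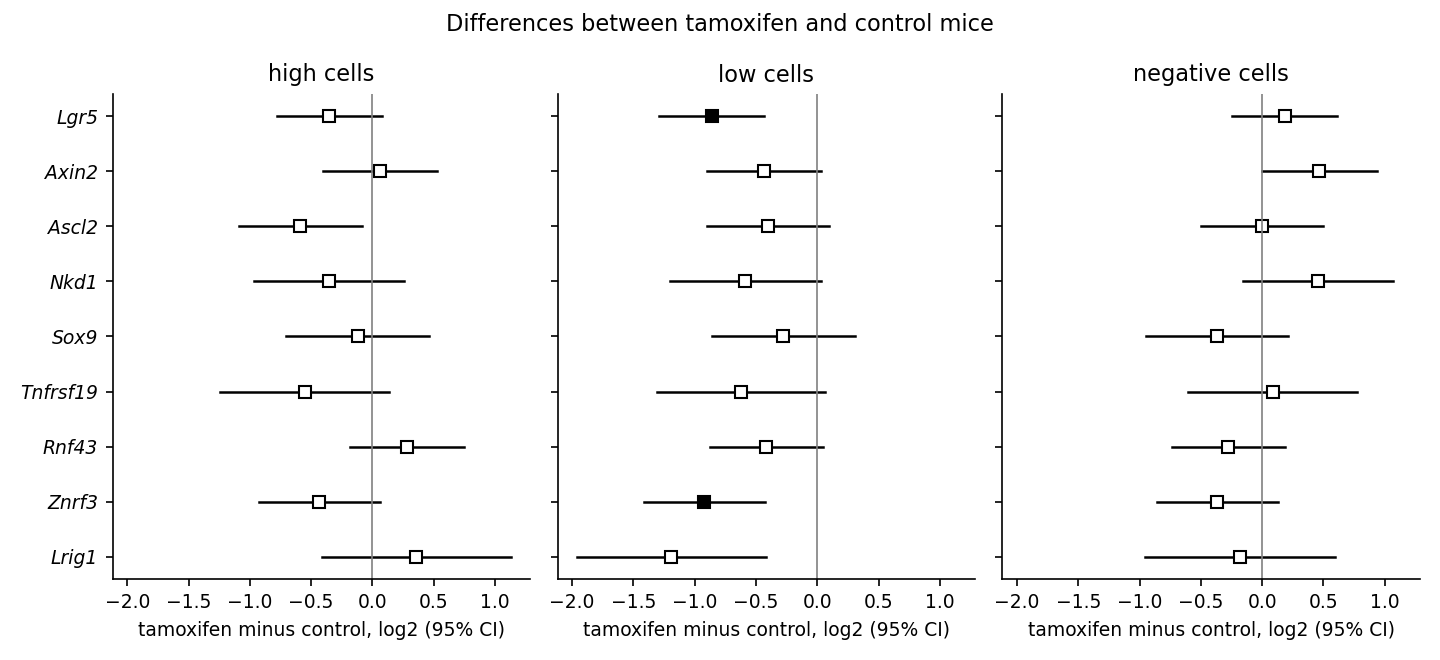
Tamoxifen minus control differences (x axes, log2 with 95% confidence intervals from the limma fit) for the 9 genes (rows) in high, low and negative cells, with filled squares where the adjusted p was under 0.05. In low cells all 9 squares lie below 0 and those of Lgr5 and Znrf3 are filled, while in high and negative cells they lie on both sides of 0.

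Genes of the Wnt pathway that act upstream were read against the 0.0271% to 12.3% of all genes called in the 12 comparisons. Of 19 Wnt ligands 7 had a mean above background, and of 4 R-spondins 2 did. No R-spondin and no gene of Wnt signal transduction was called in any of the 12 comparisons. Among ligands, Wnt5a was higher in control high than in control negative cells (1.15 ± 0.29, at least 1.29-fold, adjusted p = 0.0112, and 0.0989 without control high replicate 1), where 12.3% of all genes were called. Wnt4 was lower in tamoxifen high and low cells than in tamoxifen negative cells (-1.12 ± 0.30 and -1.29 ± 0.30, adjusted p = 0.0197 and 0.0239). Wnt9b was lower in tamoxifen than in control high cells by at least 1.71-fold (adjusted p = 0.041), where 2.73% of all genes were called. The Wnt4 call in high cells was lost without tamoxifen high replicate 3 or tamoxifen negative replicate 1 or 3 (adjusted p up to 0.0742). In low cells it was lost without any 1 array but tamoxifen low replicate 4 and tamoxifen negative replicate 4 (adjusted p up to 0.099). The Wnt9b call was lost without any 1 array but tamoxifen high replicate 4 (adjusted p up to 0.12). Of 17 receptors and co-receptors 1 was called, Ror1, a receptor for Wnt5a, which was at least 1.4-fold lower in tamoxifen than in control low cells (adjusted p = 0.0382, and 0.0532 to 0.168 without any 1 array), where 2.98% of all genes were called lower.

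Of 15 secreted Wnt inhibitors, Sostdc1, which binds BMPs and Lrp co-receptors, moved the most. It fell after tamoxifen by 3.68 ± 0.41 in low cells (5.42, against 9.10 in controls, adjusted p = 1.34e-05) and by 2.48 ± 0.41 in high cells (6.07, against 8.55 in controls, adjusted p = 0.00237). Its signal was also higher in control high and control low cells than in control negative cells, by 2.89 ± 0.44 (adjusted p = 0.000141) and 3.44 ± 0.44 (adjusted p = 6.03e-05). These 4 calls were kept without any 1 array, but the fit of the 2 groups alone gave an adjusted p of 0.17 for tamoxifen against control high cells. Notum, an enzyme that inactivates Wnt proteins, was higher in tamoxifen high than in tamoxifen negative cells (0.65 ± 0.16, at least 1.33-fold, adjusted p = 0.0122, and 0.0916 as the mean of its rows). In low cells after tamoxifen, 1 inhibitor of 15 was called higher (Dkk4, with both groups at or under background) and 2 lower (Sostdc1 and Sfrp5), and in high cells 0 and 1. Of all genes, 8.32% were called in low cells and 2.73% in high cells.

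Of 13 measured TCF factors and nuclear partners, Bcl9, a beta-catenin cofactor, was higher (0.93 ± 0.29, adjusted p = 0.0364) and the corepressor Ctbp2 lower (-0.56 ± 0.17, adjusted p = 0.0325) in control high than in control negative cells, 2 of 13 against 12.3% of all genes called. Tcf7l1, a TCF factor, was higher in tamoxifen high than in tamoxifen negative cells (0.76 ± 0.23, adjusted p = 0.0352), 1 of 13 against 10.3% of all genes. These 3 calls were lost without single arrays. For Bcl9 it was any 1 but control high replicate 3 (adjusted p up to 0.148), and for Ctbp2 control high replicate 2 or 3 or control negative replicate 1 or 3 (adjusted p up to 0.151). For Tcf7l1 it was any 1 but tamoxifen high replicate 3 and tamoxifen negative replicate 1 (adjusted p up to 0.112). Pygo1, whose protein binds Bcl9, was higher in tamoxifen than in control negative cells (0.79 ± 0.19, at least 1.09-fold, adjusted p = 0.029, and up to 0.145 without any 1 array but tamoxifen negative replicate 4). It was lower in tamoxifen low than in tamoxifen negative cells (at least 1.09-fold, adjusted p = 0.015), a call lost without replicate 1 or 2 of the tamoxifen low or 1 or 3 of the tamoxifen negative arrays (adjusted p up to 0.063) and in a fit of these 2 groups alone (0.0959). Its tamoxifen difference in low cells minus that in negative cells was -1.33 ± 0.27 (interaction, adjusted p = 0.0196), which was lost without control low replicate 1 or 2 or any 1 control negative array (adjusted p up to 0.0668).

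Of 18 measured other intestinal Wnt target and stem genes, 3 were higher and 3 lower in control high than in control negative cells, and 5 and 2 in tamoxifen high than in tamoxifen negative cells. Over all genes 12.3% were called in the control comparison (4.64% higher) and 10.3% in the tamoxifen one (3.33% higher). Smoc2, a secreted matrix protein of intestinal stem cells, was higher in high than in negative cells of both treatments, by 1.56 ± 0.30 after tamoxifen (adjusted p = 0.0015) and 2.36 ± 0.34 in controls (adjusted p = 0.000103). It fell by 1.39 ± 0.32 in tamoxifen low cells against control low cells (4.74 against 6.13, adjusted p = 0.00861). Hopx, a homeodomain protein of reserve stem cells, was higher in high than in negative cells, at least 1.72-fold after tamoxifen (adjusted p = 0.002) and at least 3.55-fold in controls (adjusted p = 0.000166). Prom1, a membrane protein used as a stem cell marker, was 1.39 ± 0.16 higher in tamoxifen high than in tamoxifen negative cells (adjusted p = 1.44e-05).

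Myc, a growth regulator that is a Wnt target in the intestine, rose after tamoxifen in high and low cells. The difference was 1.88 ± 0.30 in high cells (6.92, against 5.04 in controls, adjusted p = 0.00179) and 1.58 ± 0.30 in low cells (7.79, against 6.21 in controls, adjusted p = 0.00206). In the fit of the 2 groups alone the call in high cells was lost (adjusted p = 0.151). In control mice it was 2.29 ± 0.32 lower in high than in negative cells (adjusted p = 7.79e-05). After tamoxifen, 1 of these 18 genes was called higher and 1 lower in high cells (2.73% of all genes called), and likewise in low cells (8.32%).

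Of 9 gastric stem and progenitor genes, 3 were higher and 3 lower in control high than in control negative cells, and 5 and 3 in tamoxifen high than in tamoxifen negative cells, where 12.3% and 10.3% of all genes were called. Bhlha15, the transcription factor Mist1 of chief cells, fell by 3.02 ± 0.36 in tamoxifen low cells (5.12, against 8.14 in controls, adjusted p = 2.95e-05). In high cells it fell by 1.64 ± 0.36 (6.09, against 7.73 in controls, adjusted p = 0.0177), though the arrays overlapped. Its tamoxifen difference in low cells minus that in negative cells was -2.48 ± 0.51 (interaction, adjusted p = 0.0232). It was 2.28 ± 0.39 higher in control high than in control negative cells (adjusted p = 0.00039) and 2.68 ± 0.39 higher in control low than in control negative cells (adjusted p = 0.000243). Mki67, a marker of dividing cells, was 3.73 ± 0.64 lower in control high than in control negative cells (5.26 against 8.99, adjusted p = 0.000449). Runx1, a transcription factor, was 1.22 ± 0.20 higher in tamoxifen high than in tamoxifen negative cells (adjusted p = 0.000446). Vil1, the microvillus protein villin, was higher in high than in negative cells by 1.81 ± 0.31 after tamoxifen (adjusted p = 0.000629) and by 2.44 ± 0.36 in controls (adjusted p = 0.000115). Cckbr, the gastrin receptor, was 2.60 ± 0.39 lower in tamoxifen high than in tamoxifen negative cells (adjusted p = 0.00018). In negative cells Cckbr was 2.035 ± 0.42 higher after tamoxifen (7.44, against 5.41 in controls, adjusted p = 0.0108), where 2.32% of all genes were called. In high cells its means were 4.84 after tamoxifen and 4.86 in controls.

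Markers of other gastric cells moved with the same comparisons. Tuft cells are rare chemosensory cells, and 8 of their markers had a mean signal of 9.02 in tamoxifen high cells (arrays 7.34 to 10.02), against 10.31 in control high cells (9.95 to 10.70). In low cells it was 5.81 (5.23 to 6.75) after tamoxifen, against 8.78 (8.18 to 9.48) in controls. In negative cells it was 5.93 (5.56 to 6.57) after tamoxifen, against 7.13 (6.49 to 7.66) in controls. Of the 8, 7 were called higher in control high than in control negative cells, 6 in tamoxifen high than in tamoxifen negative cells and 7 lower in tamoxifen low than in control low cells. Of all genes, 4.64%, 3.33% and 2.98% were called in these directions. The mean of the tuft cell markers thus stood highest in the population with the brightest reporter, and none of the 8 had a group mean at or under background. Ptprc, the leukocyte antigen CD45, followed the same order, with 6.73 in tamoxifen high cells and 9.05 in control high cells, while the lymphocyte markers Cd3e and Cd79a were at or under background. The macrophage marker Cd68 did not follow it, with 5.70, 6.97 and 7.22 in tamoxifen high, low and negative cells and 4.99, 4.18 and 5.08 in the control populations. Lyz2, a lysozyme of myeloid cells, was highest in negative cells, at 6.41 after tamoxifen and 5.88 in controls.

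The mean of 8 chief cell markers was 8.03 (7.68 to 8.31) in tamoxifen high cells, against 8.66 (8.23 to 8.94) in control high cells. In low cells it was 7.96 (7.81 to 8.16) after tamoxifen, against 8.97 (8.82 to 9.13) in controls, groups that do not overlap. Negative cells had 7.58 (7.51 to 7.64) after tamoxifen, against 7.85 (7.70 to 7.94) in controls. Of the 8, 4 were called higher and 1 lower in control high than in control negative cells. After tamoxifen these counts were 4 and 0, where 12.3% and 10.3% of all genes were called. Pga5, another pepsinogen gene, went against the mean, with 8.35 in tamoxifen high and 9.83 in tamoxifen negative cells. In controls it had 9.26 in high and 11.19 in negative cells. The mean of 7 proliferation markers was lower in high than in negative cells. It was 4.80 (4.42 to 5.07) in tamoxifen high and 7.31 (6.31 to 8.49) in tamoxifen negative cells, and 5.15 (4.62 to 5.79) in control high and 8.17 (8.04 to 8.41) in control negative cells. The mean of 5 surface pit cell markers was also lowest in high cells, with 8.25 (6.58 to 9.15) after tamoxifen and 8.81 (8.15 to 9.45) in controls, and highest in negative cells, with 11.04 (10.60 to 11.52) after tamoxifen and 11.82 (11.68 to 11.90) in controls. The exception was Gkn3, a gastrokine, with 11.48 in tamoxifen high and 8.31 in tamoxifen negative cells, and 11.90 in control high and 9.89 in control negative cells. In both treatments 1 pit marker was called higher and 4 lower in high than in negative cells. Of all genes, 12.3% were called in this comparison in controls and 10.3% after tamoxifen. The mean of 4 mucous neck cell markers in low cells was 9.13 (8.29 to 9.88) after tamoxifen, against 11.02 (10.55 to 11.47) in controls. Here 2 of 4 were called lower, where 2.98% of all genes were called lower. In negative cells the mean was 9.25 (8.50 to 9.58) after tamoxifen, against 11.34 (11.17 to 11.56) in controls, with 3 of 4 called lower, where 2.32% of all genes were called. The mean of 9 endocrine cell markers in low cells was 6.71 (5.59 to 8.04) after tamoxifen, against 8.33 (7.21 to 9.11) in controls. Here 2 of 9 were called lower, where 2.98% of all genes were called lower. In negative cells the endocrine mean was higher after tamoxifen, 9.35 (8.33 to 9.96) against 7.88 (7.46 to 8.46). There 1 of 9 was called higher, where 2.32% of all genes were called in either direction. Parietal cell markers in low cells averaged 7.12 (6.63 to 7.43) after tamoxifen, against 8.39 (8.16 to 8.63) in controls. They were also lower after tamoxifen in high cells (5.65 against 6.65) and negative cells (6.27 against 7.54). Of the 8 parietal markers, 3, 4 and 4 were called lower in high, low and negative cells. Of all genes, 2.98% were called lower in low cells, and 2.73% and 2.32% were called in high and negative cells. The part of these cell types in the differences of the 9 genes was not tested.

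**Figure D4:**
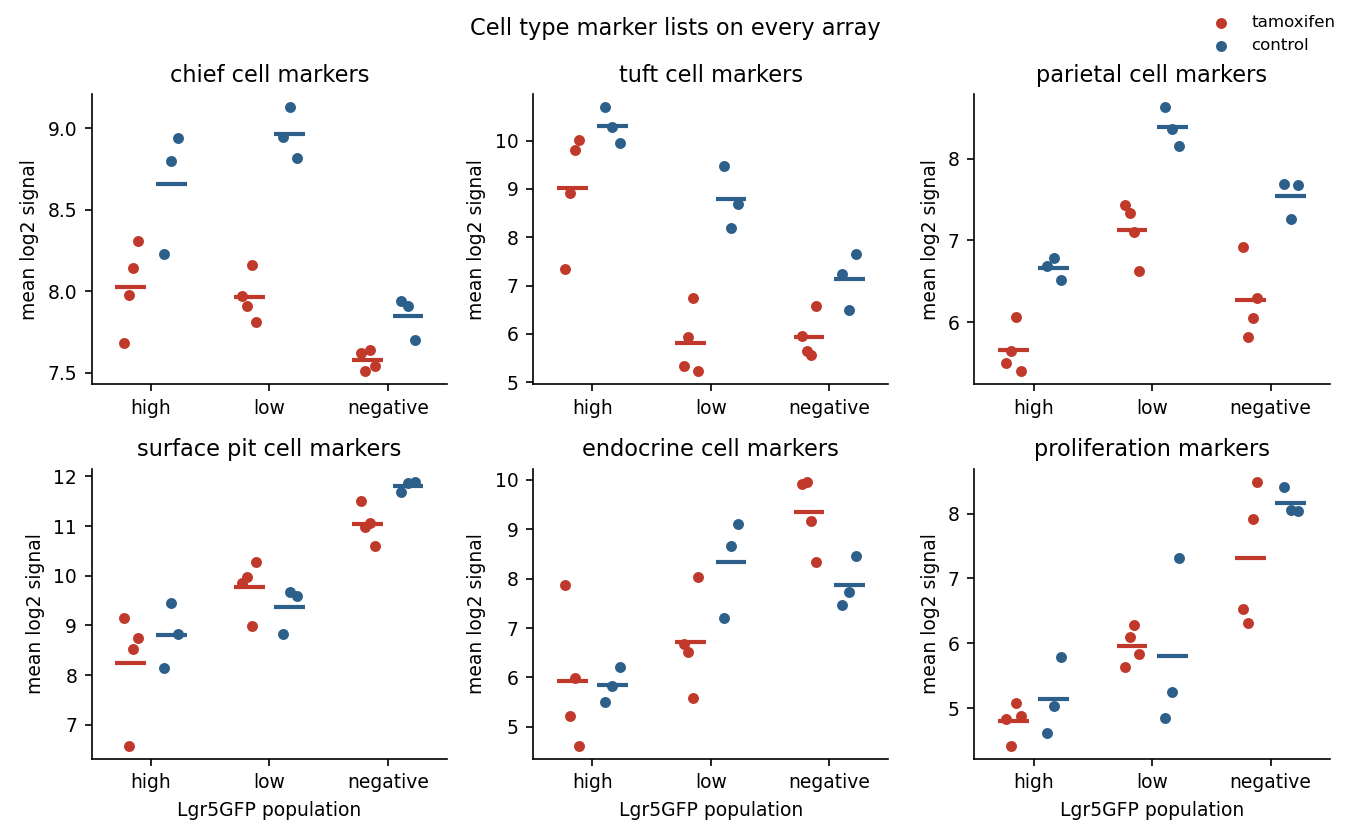
Mean log2 signal of 6 marker lists (y axes, which differ in range) by Lgr5GFP population (x axes), with a point for each array (red, tamoxifen, n = 4; blue, control, n = 3) and a bar at each group mean. The tuft cell mean is highest in high cells and lower in tamoxifen than in control low cells, and the proliferation and pit cell means are highest in negative cells.

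The genes with the pattern most like each of the 9 were sought among 11681 genes above background, by the root mean square difference over the 6 group means after each gene was centred. For Lgr5 the nearest were Cdhr5, Itpr2 and Pik3cg, at 0.44, 0.52 and 0.58 log2 units. Other genes had closer matches, such as Cachd1 at 0.067 for Ascl2, Clmn at 0.147 for Nkd1, Slc29a3 at 0.175 for Sox9 and Pld3 at 0.078 for Axin2. For Tnfrsf19 the nearest was Aldh7a1 (0.106), for Rnf43 Tcn2 (0.127), for Znrf3 Tmem238l (0.045) and for Lrig1 Mtx3 (0.083). The next 2 were Btg2 and Pnrc1 for Axin2, Reep5 and Slco3a1 for Ascl2, Ceacam1 and Ehf for Nkd1, and Ly6g6d and Sec14l1 for Sox9. They were Sntb1 and Bmp3 for Tnfrsf19, Filip1l and Denn2b for Rnf43, Scp2 and Chp1 for Znrf3, and Mir107 and Bpifb5 for Lrig1. Only genes outside the 9 were searched, and the 6 means share the same 21 arrays, so these values are a description.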

How the data were processed

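The authors deposited a table of log2 signal per probe set for 21 microarrays of sorted cells, one array per sample. Per the submitters' processing notes the tools were oligo, RMA, limma 3.26.8 and R 3.2.3, whose roles are not stated. The values run from 0.958 to 13.55 with array medians of 3.95 to 4.25. Of 41345 probe sets, 23521 name exactly 1 gene, 1814 name several and 16010 are not listed in the platform table. Gene symbols were updated by gene number, and the row with the highest mean was kept per gene, which left 22180 genes. Where RMA made the values, it can understate the fold changes of dim genes.

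A model of 6 group means was fitted to all 21 arrays by lmFit and eBayes of limma 3.58.1 (R 4.3.3), with 15 residual and 5.27 prior degrees of freedom. It gave 12 comparisons: tamoxifen with control in 3 populations, 3 pairs of populations in each treatment, and 3 interactions. Tests were two-sided and p-values were adjusted by Benjamini-Hochberg over all genes. The fit was tested on simulated data. The members, the gene lists and the rules for naming genes were chosen with earlier results of these data known. All 9 genes were tested in every comparison. The figures show their differences in all comparisons but the 3 interactions, and the text gives only part of the values that were not called. From each pathway list, up to 3 called genes with the smallest adjusted p per comparison could be named, and the 3 genes most alike were named for each gene whose group means span over 1 log2 unit. The other settings tried are given with their effect in the closing section, and the dimmer rows of Lgr5 and Axin2 and a run block for the interactions were added after seeing the data. The number of arrays limits the precision.

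Arrays of the same sorting run deviated together in control high and low cells (r = 0.222 to 0.317 over genes, 3 runs) and in control low and negative cells (0.107 to 0.233), so values with the run as a block are given there where the call changes. In control high and negative cells the lowest r was 0.092, and in tamoxifen mice r ran from -0.158 to 0.411. Run numbers come from the sample titles.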

Additional observations from a re-analysis of the deposited data

Results flagged for a closer look

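Tnfrsf19 in tamoxifen high replicate 3 was flagged because its log2 signal of 6.71 stood far from the other 3 arrays of the group, which ran from 4.90 to 5.20. The gap to the nearest of them was 0.835 of the group's range, above Dixon's 95% limit for 4 arrays. Of 27 groups tested 1 was flagged, and chance flags about 1 in 20. On that array Lgr5, Nkd1, Sox9 and Rnf43 were also the highest of the 4 tamoxifen high arrays, while Axin2, Ascl2, Znrf3 and Lrig1 were highest on replicate 1.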

How the results depend on the processing

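Each result was recomputed with cyclic loess, the mean of a gene's rows, a trended robust eBayes, weights per array, a fit of the groups alone, a 2-fold minimum, the dimmest 25% of genes left out, the sorting run as a random block (consensus correlation 0.0749), a replicate block, and each array left out in turn. No result changed direction past the threshold. Of the counts of genes called, 206 stayed within 1.5 times their value and 22 did not. For low against negative cells in control mice, 4 of 9 genes were called at 2-fold, against 7, and without 1 array 2 to 6. For high against negative cells, leaving out 1 array gave 5 to 6 in control mice, against 7, and 5 to 6 in tamoxifen mice, against 5. For high against low cells in control mice array weights gave 2, the replicate block by sorting run 2 and the groups alone 0, against 1, and every fit without 1 array gave 1. In tamoxifen mice the groups alone gave 1, against 2, and leaving out 1 array 2 to 3. For low against negative cells in tamoxifen mice the groups alone and 2-fold gave 1 each, against 2, and leaving out 1 array 1 to 3. For tamoxifen against control, low cells gave 0 at 2-fold, against 2, and 1 to 3 without 1 array, high cells 0 to 1 and negative cells 0. The replicate number as a block gave 1 call, Lgr5, in the low minus negative interaction (adjusted p = 0.0332), against 0, and leaving out 1 array gave 0 in all 3 interactions. Numbers across treatments mark no shared run. With the sorting run as a block in tamoxifen mice, Sox9 was called for low against negative cells (adjusted p = 0.00114) and for high against low cells (0.00415), and Axin2 for high against negative cells (0.0428). The cause of these changes was not tested, except that the 2-fold limit calls fewer genes by construction.

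Counts over all genes moved more. For tamoxifen against control high cells 606 genes were called, against 12 with the groups alone, 1128 with the replicate block and 215 to 1702 without 1 array. For high against negative cells it was 2728 in control mice, against 4810 with array weights, and 2283 in tamoxifen mice, against 938 with the groups alone. For low against negative cells in control mice it was 1168, against 2637 with array weights, and for tamoxifen against control negative cells 515, against 1621 with array weights. Signal near the background of olfactory receptor genes limits Ascl2 and Nkd1 in negative cells, where only a lower bound of a fold can be given.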
